A study of Mus musculus with 33 samples.

Results

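Among 20 libraries of thymic epithelial cells (TEC) from 6-week-old mice, 4 carried the transcripts of tuft cells, and these 4 are described here against the other 16. They were chosen by 1 gene: a library was taken when Trpm5 held more than 0.1% of its transcript molecules. The lowest library inside that threshold had Trpm5 at 1689 UMIs per 1000000 (CPM) and the highest outside it had 90.2 CPM, so none lay near it. UMIs are unique molecular identifiers, the tags by which MARS-seq, a method that sequences the 3′ ends of transcripts, counts molecules. Since Trpm5 defined the 4 libraries, every difference between them and the other 16 at 6 weeks is given as a description with no test. Tests of a difference between groups are confined to younger libraries that played no part in the choice.

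The whole series holds 33 bulk libraries of sorted cells. All TEC came from wild-type C57BL/6 mice, as 2 libraries each at embryonic days 15 (E15) and 17 (E17), 2 each of populations titled mTEC1, mTEC2 and mTEC4 at postnatal day 6, and 4 each titled cTEC, mTEC1, mTEC2, mTEC3 and mTEC4 at 6 weeks. A further 3 libraries hold cells called HFC, from the skin of 4-week-old C57BL/6 mice, positive for Foxn1.EGFP, a reporter of Foxn1, the transcription factor on whose regulation the series centres. cTEC and mTEC are used in this field for cortical and medullary TEC. The labels do not give the sort markers or say whether the libraries of a title came from separate animals, so the p-values below cover the spread among these libraries alone, and that spread may be technical.

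Tuft cells are rare chemosensory epithelial cells of gut, airway and thymic medulla. In taste cells and tuft cells alike, a receptor acts through a G protein and phospholipase C to release calcium, which opens the cation channel Trpm5. Tuft cells answer with the cytokine IL-25, leukotrienes, prostaglandins and acetylcholine. Their formation depends on the transcription factor Pou2f3, and in the thymus they lie in the medulla, where medullary epithelium also displays many tissue-restricted antigens.

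The titles were ignored at 6 weeks because the markers contradict them. The 4 libraries are titled 195 mTEC2, 195 mTEC3, 195 mTEC4 and 196 cTEC, and per-library values below follow this order. The library titled 196 cTEC had Psmb11, the proteasome subunit of cortical TEC, at 0 CPM and Prss16, a cortical serine protease, at 117 CPM, whereas Prss16 reached 7678 CPM in the library titled 196 mTEC4. As the columns are titled, libraries that share a number also differed in sex-linked transcripts, so the number cannot be taken to mark 1 animal. The Y-linked genes Ddx3y, Eif2s3y, Kdm5d and Uty summed to between 100.4 and 145 CPM in 5 of the 20 libraries, in which Xist was at most 6.27 CPM, and to at most 10.1 CPM in the other 15, in which Xist was 23.7 to 81.0 CPM. Of the tuft-marker libraries, 195 mTEC4 was Y-positive and the other 3 were Xist-positive. In the order of the deposited table, the 4 tuft-marker libraries are the 13th to the 16th of the 6-week columns and the 5 Y-positive libraries are the 3rd, 7th, 11th, 15th and 19th. These sex-linked genes were looked at after the values were seen, and no title was changed on their account.

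The 4 libraries held 376637 to 671484 UMIs and the other 16 held 98670 to 1369629. They resembled each other: across 13610 genes, Pearson's r of log2 levels lay between 0.904 and 0.917 within the 4 and between 0.618 and 0.759 from any of them to any of the 16, as a description across genes that share a library. They were not 1 library deposited repeatedly, since every pair differed beyond counting noise (chi-square per degree of freedom 2.15 to 4.22). The epithelial label was checked with Epcam. This gene, which encodes an epithelial adhesion molecule, stood at 692, 430, 375 and 592 CPM, against 137 to 422 (median 282) in the others. The summed levels of markers of other cell types in the 4 lay within or partly below the range of the others, except for the B cell list. They were 55.8 to 393 CPM for 12 thymocyte genes (others 20.1 to 721, median 143), 106 to 293 for 9 myeloid genes (others 35.9 to 1689, median 589), 106 to 273 for 8 endothelial genes (others 28.8 to 1196, median 139) and 46.2 to 111 for 7 mesenchymal genes (others 66.3 to 3578, median 692). The 2 B cell genes summed to 226 to 275 CPM (others 0 to 114), and the 5 mast cell and basophil genes to 89.9 to 138 CPM (others 0 to 157). Itgax, Lum and the basophil and mast cell genes Mcpt8 and Fcer1a were at 0 in all 4, where 3 UMIs of a library's total is the level that a count of 0 still allows.

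A gene is called apart here when the 4 libraries all lie on 1 side of the other 16 and the mean log2 levels differ by at least 2 (4-fold). Of 13610 genes that passed the filter on low values, 473 were apart and higher (3.48%) and 79 apart and lower (0.58%). Disregarding size, 756 lay wholly above and 126 wholly below. The median gene differed by −0.03 on the log2 scale. Because the rule used this contrast, these shares are context for the counts that follow and nothing is read from them. In bulk samples, fewer cells of a type and less RNA per cell cannot be told apart.

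The tuft genes listed for this comparison numbered 55, of which 51 are in the table and 48 passed the filter. Of these 48, 37 were apart and higher and 0 were lower. The 37 include Trpm5, whose place was fixed by the rule. Some genes, such as Sucnr1, Tas2r138 and Cd300lf, passed the filter only through the 4 libraries and so could not come out lower. Together the 51 genes took 31777 to 34667 CPM in the 4 libraries, about 3.18% to 3.47% of all molecules, and 448 to 2931 CPM (median 1340) in the other 16.

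**Figure D1:**
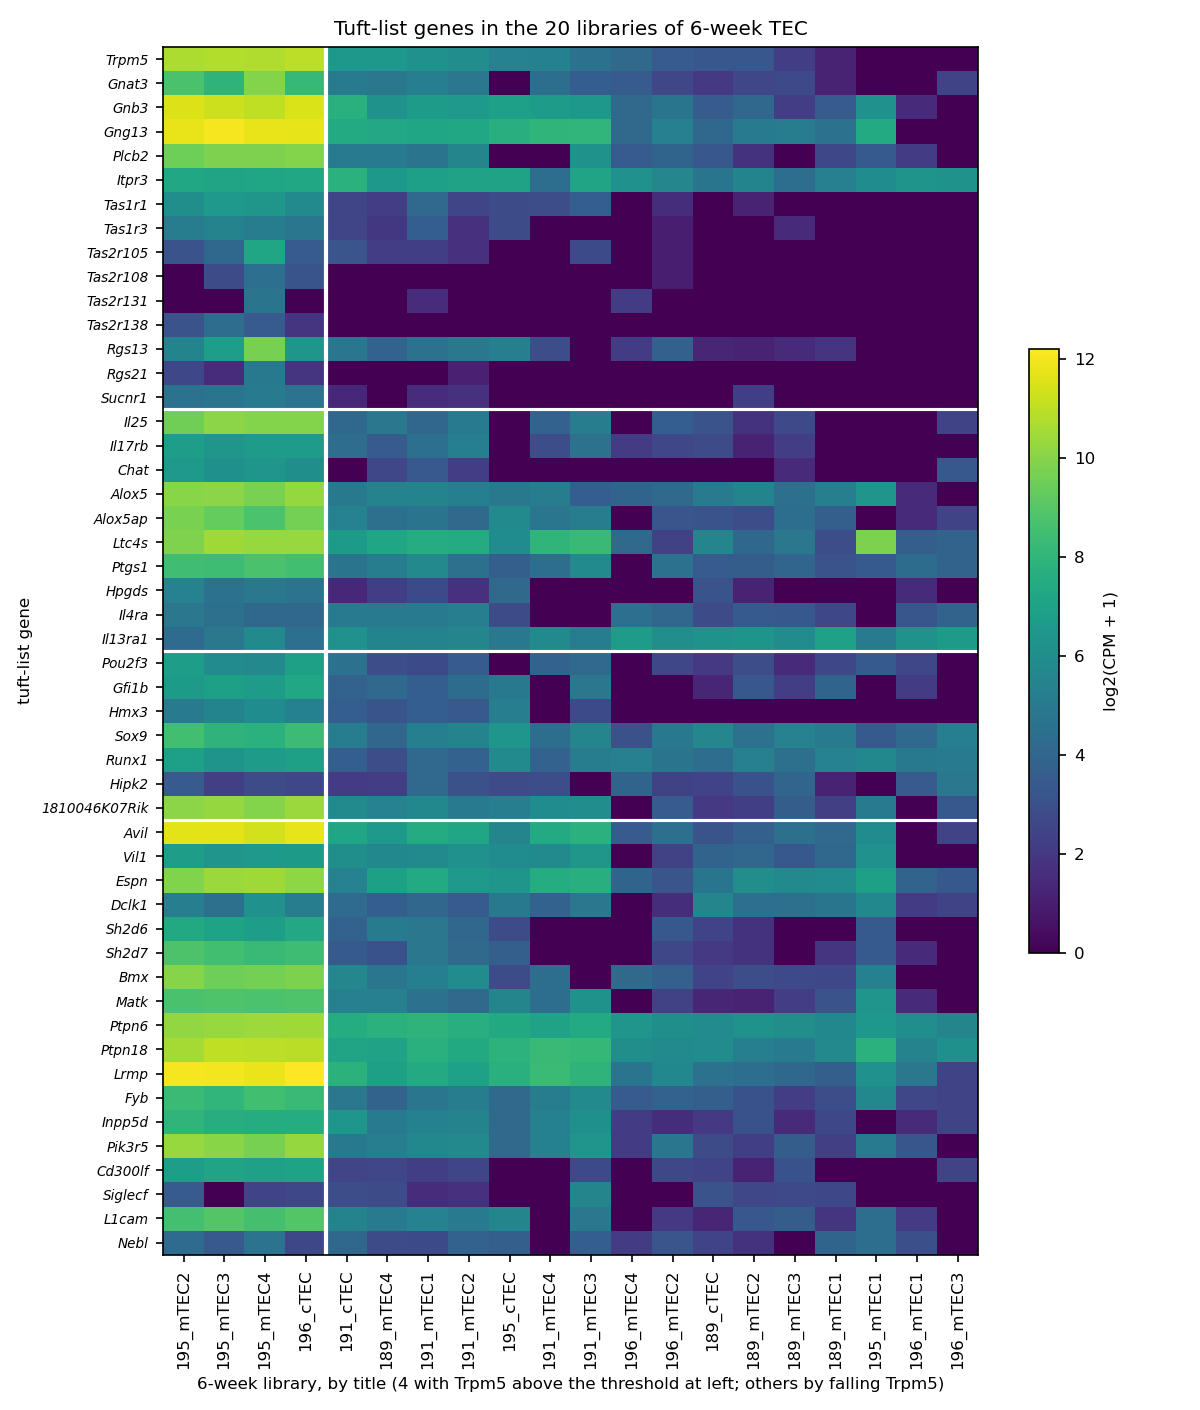
Level of tuft-list genes (rows; colour is log2(CPM + 1)) in the 20 libraries of 6-week TEC (columns, by title). White lines part the 4 tuft-marker libraries, at left, from the other 16 and separate the 4 lists (chemosensory cascade, effectors, regulators, cytoskeleton and signalling). Most rows are bright in the 4 left columns, whereas rows such as Itpr3, Il13ra1, Hipk2, Dclk1 and Siglecf overlap with the other columns.

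The chemosensory cascade was represented from receptor to channel, with 10 of its 12 genes that passed the filter apart and higher. The 10 include Trpm5, whose place was fixed by the rule. Sucnr1, Tas1r3 and Tas2r138, also among them, passed the filter only through the 4 libraries. Trpm5 itself (chr7:143069153-143094642, minus strand, GRCm38), the gene of the rule, stood at 1689, 1769, 1725 and 2026 CPM, against 0 to 90.2 (median 14.03) elsewhere. Next upstream, Plcb2, the phospholipase C of taste cells, stood at 728, 886, 901 and 972 CPM, against 0 to 74.3 (median 9.61), a log2 difference of 6.52. The G protein subunits followed. Gnb3 stood at 2987, 2483, 2107 and 2921 CPM (others 0 to 216, median 48.4) and Gng13 at 3565, 4183, 3574 and 3404 (others 0 to 257, median 94.4). The lowest tuft-marker library exceeded the highest other library 9.74-fold for Gnb3 and 13.2-fold for Gng13. Gnat3, the alpha subunit called gustducin, was also apart but uneven, at 417, 246, 975 and 284 CPM (others 0 to 36.0).

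Receptors were fewer in molecules. Tas1r1 and Tas1r3, which pair as the umami receptor, stood at 64.8, 91.9, 86.4 and 55.8 CPM and at 33.7, 43.0, 34.3 and 26.6 CPM, against at most 17.1 and 11.4 CPM elsewhere. Sucnr1, the succinate receptor by which gut tuft cells sense microbial metabolism, stood at 23.3, 25.4, 31.3 and 23.9 CPM and at most 3.76 CPM in the others. The calcium release channel Itpr3 overlapped, at 139 to 154 CPM against 20.1 to 218.

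Of the effectors, 8 of 10 were apart and higher. Il25 (chr14:54932695-54935837, plus strand), the cytokine with the largest difference of all genes, stood at 759, 1101, 969 and 972 CPM against 0 to 34.3 (median 6.52), a log2 difference of 7.01. Its receptor subunit Il17rb was higher too, at 86.0 to 111 CPM against 0 to 36.9. Leukotriene synthesis was present as a chain. Alox5, the 5-lipoxygenase (chr6:116410077-116461178, minus strand), stood at 1034, 1095, 868 and 1256 CPM (others 0 to 81.1), its partner Alox5ap at 858, 643, 433 and 810 (others 0 to 53.5), and the leukotriene C4 synthase Ltc4s at 933, 1400, 1294 and 1266. Ltc4s was the least cleanly separated of the chain, since 1 other library, titled 195 mTEC1, held 902 CPM, while the median of the 16 was 53.2. Ptgs1 and Hpgds, enzymes of prostaglandin synthesis, were apart at 340 to 414 and 23.5 to 41.5 CPM. Hpgds passed the filter only through the 4 tuft-marker libraries and so could not come out lower. Chat, which makes acetylcholine, stood at 95.9, 68.4, 80.4 and 66.4 CPM and was at 0 in 11 of the other 16. The receptors Il4ra and Il13ra1 overlapped with the others.

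Regulators were apart in 4 of 7 cases. Pou2f3 (chr9:43123939-43210369, minus strand) stood at 111, 58.6, 52.1 and 122 CPM against 0 to 23.0 (median 5.46). Gfi1b, a transcriptional repressor, stood at 98.4, 123, 107 and 157 CPM (others 0 to 29.7), and Sox9, a transcription factor of many epithelia, at 365, 242, 220 and 327 (others 7.11 to 83.3). The fourth was 1810046K07Rik, for which no role is given here, at 1080, 1232, 981 and 1322 CPM against 0 to 62.9. Runx1 lay wholly above the others, at 78.2 to 122 CPM against 6.57 to 53.5, with a log2 difference just short of the threshold. Hmx3 (31.1 to 61.1 CPM) overlapped through 1 other library, titled 195 cTEC, at 35.7 CPM, and Hipk2 did not separate at all (3.91 to 10.4 against 0 to 27.5).

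Cytoskeletal and signalling genes gave 15 of 19. Avil (chr10:127000709-127020994, plus strand), which encodes the actin-binding advillin, stood at 3306, 3298, 2637 and 3393 CPM against 0 to 223. Lrmp, a membrane protein of the endoplasmic reticulum first described in lymphocytes, stood at 4267, 4039, 3655 and 4713 CPM against 4.59 to 317. Others apart were Espn, which bundles actin, the kinases Bmx and Matk, the phosphatases Ptpn6, Ptpn18 and Inpp5d, the adaptors Sh2d6, Sh2d7 and Fyb, the phosphoinositide 3-kinase subunit Pik3r5, the receptor Cd300lf and the adhesion molecule L1cam. Several of these genes are better known from blood cells, and the leukocyte marker Ptprc stood beside them at 13.4 to 25.4 CPM against 0 to 40.5. Dclk1, widely used to stain tuft cells, overlapped at 36.3, 21.5, 71.5 and 34.5 CPM against 0 to 50.7 (median 16.6), and Siglecf stood at 0 to 10.4 CPM against 0 to 45.7.

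Beyond the lists, the genes most above the others included Car7, a carbonic anhydrase, at 1554, 1906, 1870 and 2087 CPM (others 0 to 62.0; log2 difference 6.77). Nrgn, a calmodulin-binding protein known from neurons, stood at 2199, 2617, 2249 and 2241 CPM (others 0 to 163). Fezf1, a zinc-finger transcription factor, stood at 163, 250, 274 and 228 CPM (others 0 to 26.2), and Zpld2 at 290 to 382 CPM (others 0 to 26.2). A few more were picked out after their values were seen. Il10, an anti-inflammatory cytokine, stood at 337, 278, 415 and 252 CPM (others 0 to 44.1), and Hamp2, a gene of the hepcidin family, at 627, 401, 347 and 356 CPM (others 0 to 91.8). Of genes listed as markers of other cell types, Cd79b from the B cell list was apart at 226 to 275 CPM (others 0 to 91.4). Tek from the endothelial list was apart at 79.7 to 210 CPM (others 0 to 22.7), while Cdh5 stood at 0 to 5.96 CPM. Kit, from the mast cell list, overlapped at 82.1 to 138 CPM against 0 to 120.

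The promoters of these genes were searched for 4 motifs named after factors of the regulator list, over windows of 250 bases before to 50 after a gene's start (RefSeq, GRCm38.p6, both strands, 1 or more matches). The octamer ATGCAAAT, bound by POU factors such as Pou2f3, was in 17 (4.64%) of the 366 genes apart and higher that have a window and in 190 (1.76%) of the 10780 filtered genes that have one, and in 0 of 56 lower genes. The RUNX motif AACCACA was in 4.37% against 4.75%, the SOX motif ACAAAG in 18.9% against 17.1%, and the Gfi motif AATCANNGC in 4.10% against 4.10%. Of the 56 lower genes, 0 held the RUNX motif too, 7 the SOX motif and 2 the Gfi motif. These 4 were reported out of 15 patterns looked at on these data, so the octamer share is a description and was not tested, and a match is not a bound site. The 200 bases before the start of 5 octamer genes and of 2 marker genes without one are shown to let the motif be seen in place, 5′ to 3′ on the gene's strand, with each octamer in capitals. 1810046K07Rik has another start in RefSeq, whose 200 bases (chr9:51312670-51312869, minus strand) hold no octamer and are not printed.
1810046K07Rik, chr9:51328919-51329118, minus strand: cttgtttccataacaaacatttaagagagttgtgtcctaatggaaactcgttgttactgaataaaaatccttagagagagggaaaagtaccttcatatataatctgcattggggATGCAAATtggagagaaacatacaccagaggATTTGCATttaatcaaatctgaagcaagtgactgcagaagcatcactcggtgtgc
Ano7, chr1:93373696-93373895, plus strand: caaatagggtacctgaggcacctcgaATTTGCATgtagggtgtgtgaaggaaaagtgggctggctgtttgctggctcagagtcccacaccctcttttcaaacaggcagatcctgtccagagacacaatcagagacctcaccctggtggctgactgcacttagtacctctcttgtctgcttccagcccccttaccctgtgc
Ly6g6d, chr17:35081240-35081439, minus strand: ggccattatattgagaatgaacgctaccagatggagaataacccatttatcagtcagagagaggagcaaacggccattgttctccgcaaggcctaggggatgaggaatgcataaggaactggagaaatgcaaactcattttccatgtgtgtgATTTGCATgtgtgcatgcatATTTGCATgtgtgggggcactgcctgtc
Art5, chr7:102100230-102100429, minus strand: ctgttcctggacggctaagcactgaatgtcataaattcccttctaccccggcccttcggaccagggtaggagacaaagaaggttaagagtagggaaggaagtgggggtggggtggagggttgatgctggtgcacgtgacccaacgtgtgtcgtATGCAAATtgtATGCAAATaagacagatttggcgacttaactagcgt
Sucnr1, chr3:60081669-60081868, plus strand: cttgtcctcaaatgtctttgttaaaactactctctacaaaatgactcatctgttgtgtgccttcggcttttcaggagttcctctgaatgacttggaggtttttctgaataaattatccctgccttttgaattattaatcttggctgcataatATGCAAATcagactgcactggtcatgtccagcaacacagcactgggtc
Trpm5, chr7:143094643-143094842, minus strand: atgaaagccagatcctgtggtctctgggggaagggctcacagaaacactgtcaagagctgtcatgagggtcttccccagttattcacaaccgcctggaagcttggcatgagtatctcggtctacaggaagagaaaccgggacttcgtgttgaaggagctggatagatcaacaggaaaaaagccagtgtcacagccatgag
Avil, chr10:127000509-127000708, plus strand: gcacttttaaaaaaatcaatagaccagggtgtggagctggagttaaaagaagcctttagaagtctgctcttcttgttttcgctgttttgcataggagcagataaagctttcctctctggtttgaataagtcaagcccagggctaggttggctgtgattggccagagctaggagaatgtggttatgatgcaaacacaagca
The octamer nearest the start lay within the last 50 bases in Sucnr1, Art5 and Ly6g6d. Levels of the octamer genes differed widely: 1810046K07Rik stood at 981 to 1322 CPM in the 4 libraries, Ano7 (a membrane protein of the anoctamin family) at 251 to 317 CPM, Ly6g6d at 164 to 238 CPM and Art5 at 163 to 231 CPM.

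Among the lower genes were those of antigen presentation to helper T cells. Of 9 MHC class II genes, 5 were apart and lower and 6 lay wholly below the others, with a median log2 difference of −2.15. H2-Aa, a class II alpha chain, stood at 1425, 1892, 1352 and 1285 CPM against 2552 to 25563 (median 6350). Cd74, the invariant chain, stood at 1699, 2111, 1552 and 1516 CPM against 3361 to 20241 (median 8929). The class II activator Ciita stood at 0 to 7.82 CPM, with a median of 58.9 in the others, but overlapped with them.

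Foxn1 (chr11:78357577-78386558, minus strand) stood at 10.4, 33.2, 10.4 and 15.9 CPM, against 10.1 to 313 (median 156) in the other 16, a log2 difference of −2.81. The groups overlapped, since 2 other libraries lay below the highest of the 4, titled 195 mTEC1 (10.1 CPM) and 195 cTEC (29.7 CPM). Cortical markers and the Aire-stage genes gave 0 of 11 and 0 of 7 apart, and the basal keratin Krt14 was the 1 of 5 basal genes apart, at 118 to 157 CPM against 243 to 2461. Aire, the regulator of tissue-restricted antigens, stood at 46.6, 89.9, 58.1 and 69.0 CPM within the range of the others (0 to 2486).

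The 10 most lowered genes included several for secreted and matrix proteins. Igfbp6, which binds insulin-like growth factors, stood at 10.4, 1.95, 0 and 0 CPM against 11.9 to 317 (median 70.6; log2 difference −4.36). Col4a1, a basement membrane collagen, stood at 23.3, 19.5, 47.7 and 26.6 CPM against 98.9 to 539. The collagen Col18a1, the matrix proteins Bgn and Fbn1, the opioid precursor Penk, the betaglycan gene Tgfbr3, Rab34 and Shisal1 were also among them. The summed mesenchymal markers given above were lower in these libraries too, and their part in the matrix genes was not tested. Apoe, the lipid carrier, picked out after its values were seen, stood at 407, 264, 267 and 462 CPM against 588 to 7145 (median 3767).

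**Figure D2:**
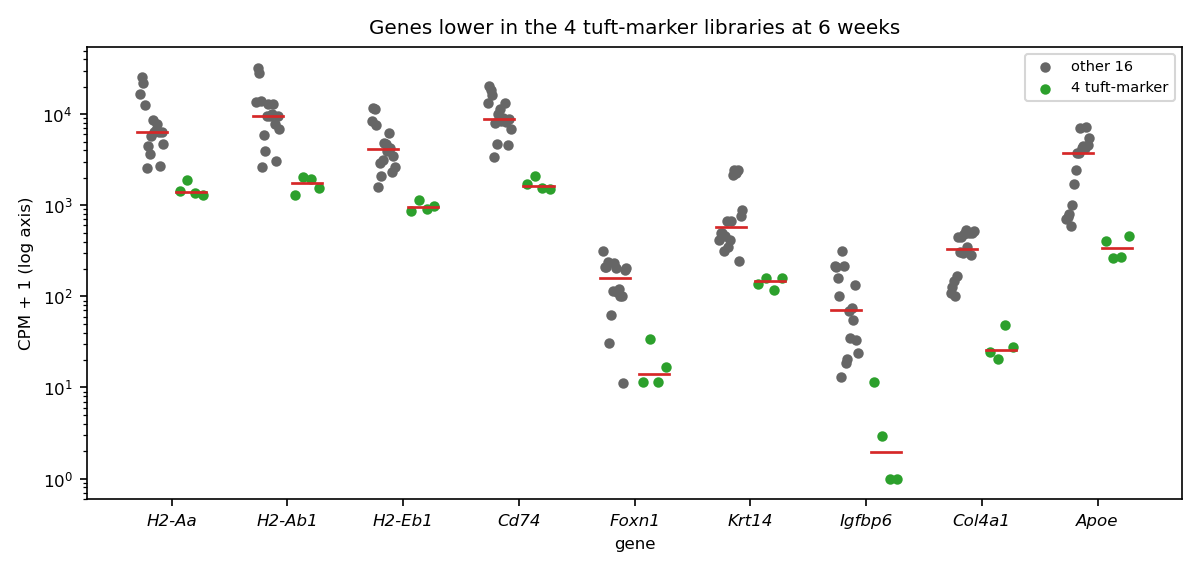
CPM + 1 (log axis) of 9 genes that were low in the tuft-marker libraries; points are the 4 tuft-marker libraries (green) and the other 16 (grey), and red bars are medians. The groups do not overlap except for Foxn1, where 2 other libraries lie below the highest tuft-marker library (33.2 CPM).

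The other lists were not apart as groups: 0 of 7 muscle, 0 of 6 endocrine, 0 of 11 cornified keratinocyte, 0 of 7 microfold, 0 of 5 ciliated, 0 of 2 ionocyte, 0 of 10 dissociation stress, 0 of 7 pan-epithelial and 0 of 7 cell cycle genes. Some members were nevertheless uneven. The muscle regulator Myog stood at 174, 58.6, 77.4 and 82.3 CPM against 0 to 74.3 (median 4.10), and the skeletal actin Acta1 at 269, 111, 16.4 and 53.1 CPM against 0 to 30.3. Spib, a transcription factor of the microfold list, stood at 909, 756, 642 and 735 CPM against 6.85 to 657.

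The 4 libraries were not identical to each other, and they differed in both directions. Of 6155 genes that reached 20 normalized UMIs in any of the 4, 62 were higher in 195 mTEC4 than in each of the other 3 and at least 4-fold above their mean log2 level, compared with 20 in 195 mTEC2, 17 in 195 mTEC3 and 3 in 196 cTEC. In the same order as the titles above, 37, 9, 10 and 45 genes were lower by that measure, so 196 cTEC and 195 mTEC2 had the most low genes. Their totals, in that order, were 385999, 511568, 671484 and 376637 UMIs. The libraries with the most low genes were thus the shallowest, and 195 mTEC4 was the deepest. The part of depth in these counts was not tested. A gene can enter them through the 1 library in which it is high. With a mean of 20 or more over the 4, added after the data were seen, 4993 genes remained, of which 7, 3, 22 and 1 were higher and 10, 3, 4 and 11 lower. Bitter taste receptors differed in 195 mTEC4. The 14 Tas2r genes of the table summed to 135, 139, 536 and 114 CPM, and all 14 were detected in 195 mTEC4, compared with 6, 12 and 7 in the other 3. In the 16 other libraries the sum was 0 to 19.7 CPM (median 4.07). The number of Tas2r genes detected also depends on a library's total UMIs, which was highest in 195 mTEC4. The part of depth in that number was not tested. Tas2r105 stood at 7.77, 15.6, 143 and 10.6 CPM, which are 3, 8, 96 and 4 UMIs. The Tas2r genes are close relatives, and how the authors assigned reads shared by relatives is not given in the sources used here. Rgs13, a regulator of G protein signalling, moved the same way, at 44.0, 109, 819 and 82.3 CPM, as did Gnat3.

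A further 6 genes, picked out after their values were seen, were also highest in 195 mTEC4. Uqcrb, a subunit of the respiratory chain, stood at 12.95, 41.1, 232 and 15.9 CPM with a median of 138 in the other 16, and Csnk1a1, a casein kinase, at 20.7, 23.5, 146 and 21.2 with a median of 134. Mbnl1, Hnrnpa0, Smarca5 and Srsf1 were likewise highest in 195 mTEC4. For these 6 genes 195 mTEC4 was above the median of the other 16 and the remaining 3 were below it, whereas for Rgs13, Gnat3 and Tas2r105 all 4 were above it. Gapdh, at 5.18, 5.86, 8.94 and 7.97 CPM, was below that median (12.8 CPM) in all 4. 195 mTEC4 was also the Y-positive library. The part of either in the difference between the 4 was not tested.

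**Figure D3:**
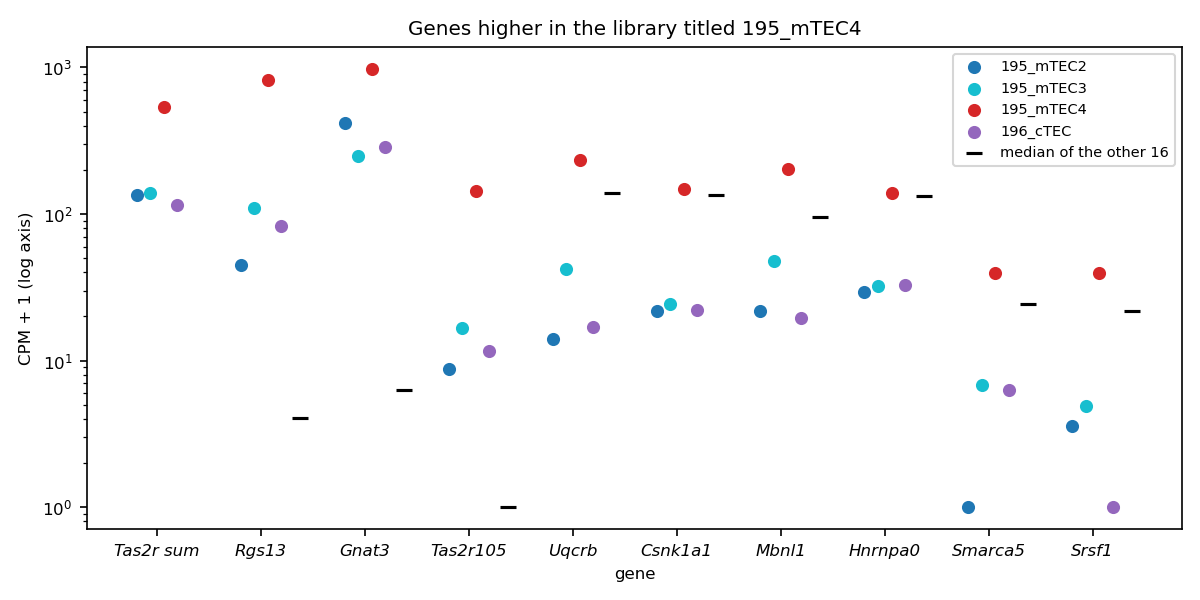
CPM + 1 (log axis) in each of the 4 tuft-marker libraries (coloured points) for the sum of 14 Tas2r genes, 3 tuft genes and 6 other genes, with the median of the other 16 libraries as a black dash (not shown for the Tas2r sum, whose median was 4.07 CPM). The library titled 195 mTEC4 (red) is highest in every column; for Uqcrb to Srsf1 it lies above the dash and the other 3 below, and for Rgs13, Gnat3 and Tas2r105 all 4 lie above the dash.

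The day 6 libraries give a measure that the rule did not use. Titled mTEC2 was the population there with Trpm5, at 505 and 451 CPM against 0 to 29.8 CPM in the other day 6 libraries. Since the members and gene lists were chosen with earlier results of these data known, the tuft counts at day 6 are not an independent replication. Those titled mTEC2 (n = 2) were compared with those titled mTEC1 and mTEC4 (n = 4) by limma across 11543 genes, calling those below 0.05 after adjustment by the method of Benjamini and Hochberg. In all, 501 genes were higher (4.34%) and 404 lower (3.5%). Of the 473 genes apart and higher at 6 weeks, 384 were tested at day 6 and 170 rose in titled mTEC2, 35.9% of the 473, while 0 fell. Genes that passed the filter only through the 2 titled mTEC2 libraries, such as Il25 and Chat, could not fall. Of the 79 apart and lower at 6 weeks, 78 were tested, 22 fell (27.8% of the 79) and 1 rose, the cyclin gene Ccnd1, at 2.16 on the log2 scale. Both shares lie above those over all tested genes. The count over all genes depended on single libraries: it was 907 higher and 1780 lower without the first mTEC2 library, 351 and 201 without the first mTEC1 library, and 312 and 175 without the second. The 170 became 123 without the first mTEC2 library and 143 without the second, and the 22 became 34 without the first, 13 without the first mTEC1 library and 14 without the second. Fitted on the day 6 libraries alone, 62 of the 473 rose and 9 of the 79 fell, of 109 and 54 genes called in all.

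**Figure D4:**
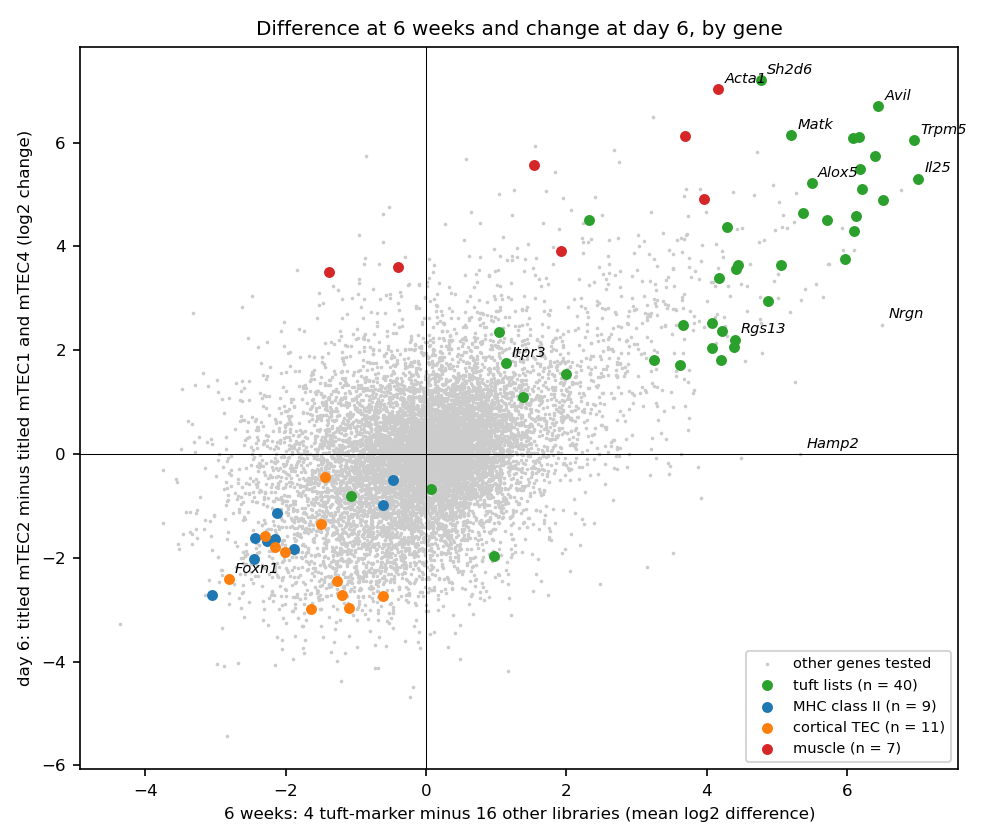
Each point is a gene tested at both ages: mean log2 difference of the 4 tuft-marker from the 16 other libraries at 6 weeks (x axis) and log2 change of titled mTEC2 against titled mTEC1 and mTEC4 at day 6 (y axis), with 4 gene lists coloured. Most tuft-list genes lie at upper right, with Trpm5 at 6.95 and 6.04; Hamp2 lies at 5.33 and near 0, and the muscle genes lie high on the y axis.

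Of the tuft-list genes, 40 were tested at day 6, of which 28 rose and 0 fell. The chemosensory cascade gave 6 of 7, the effectors 5 of 9, the regulators 2 of 6 and the cytoskeletal and signalling genes 15 of 18. Some of the 40, such as Il25, Chat and Cd300lf, passed the filter only through the 2 titled mTEC2 libraries and so could not fall. Alox5 stood at 277 and 170 CPM in titled mTEC2 and at 0 to 10.5 in the other 4 libraries, a log2 change of 5.21 ± 0.80 (SE; limma adjusted p = 0.00444). Gng13 stood at 1542 and 915 CPM against 5.18 to 56.1, a change of 6.10 ± 0.68 (limma adjusted p = 0.000968). Il25 differed between the 2 mTEC2 libraries, at 280 and 47.8 CPM, and stood at 0 to 3.51 in the others, with a change of 5.31 ± 0.77 (limma adjusted p = 0.00349). Pou2f3 did not pass, at 55.4 and 8.97 CPM against 0 to 13.9 (1.71 ± 0.84, limma adjusted p = 0.234), nor did Sox9 (1.80 ± 0.62, limma adjusted p = 0.107) or Rgs13, the latter at 194 and 0 CPM. Chat passed with limma (15.4 and 8.97 CPM against 0 in all 4, adjusted p = 0.0107) but not with edgeR or DESeq2. The count of 28 was 18 without the first mTEC2 library and 23 without the second.

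Genes of other lists rose in titled mTEC2 too, namely 2 of 4 ciliated, 1 of 5 microfold, 3 of 7 pan-epithelial and 1 of 8 endothelial genes. All 7 muscle genes rose there, with a summed level of 4019 and 1859 CPM against 45.3 to 105 in the other day 6 libraries. The 5 most raised genes were Sh2d6, Acta1, Avil, Muc5b, a mucin, and Matk. Endothelial genes summed to 1006 and 3649 CPM against 207 to 2172. The second mTEC2 library had Gnat3, Rgs13 and all 14 Tas2r genes at 0, and Uqcrb, Smarca5 and Srsf1 at 0 as well. The part of these genes in the day 6 changes was not tested.

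Levels at day 6 were mostly below those at 6 weeks. Of the 37 tuft-list genes apart at 6 weeks, 31 had both titled mTEC2 libraries below all 4 tuft-marker libraries, with a median ratio, over the 37, of 2.998 between the 6-week and day 6 means. Sh2d6 and Matk went the other way. Sh2d6 stood at 168, 133, 109 and 165 CPM at 6 weeks and at 908 and 610 CPM at day 6, and Matk at 409, 455, 423 and 462 and then at 775 and 583 CPM. Both are SH2-domain proteins of intracellular signalling. Hamp2 was at 9.23 and 0 CPM in titled mTEC2 at day 6, where the first mTEC1 library held 32.9 CPM. The ages are set side by side without a test, since they differ in other ways too: Gapdh, a glycolytic enzyme, stood at 5.18 to 8.94 CPM in the 4 libraries and at 631 to 1313 CPM at day 6, with a range of 0 to 1530 CPM over all 20 libraries of 6 weeks.

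**Figure D5:**
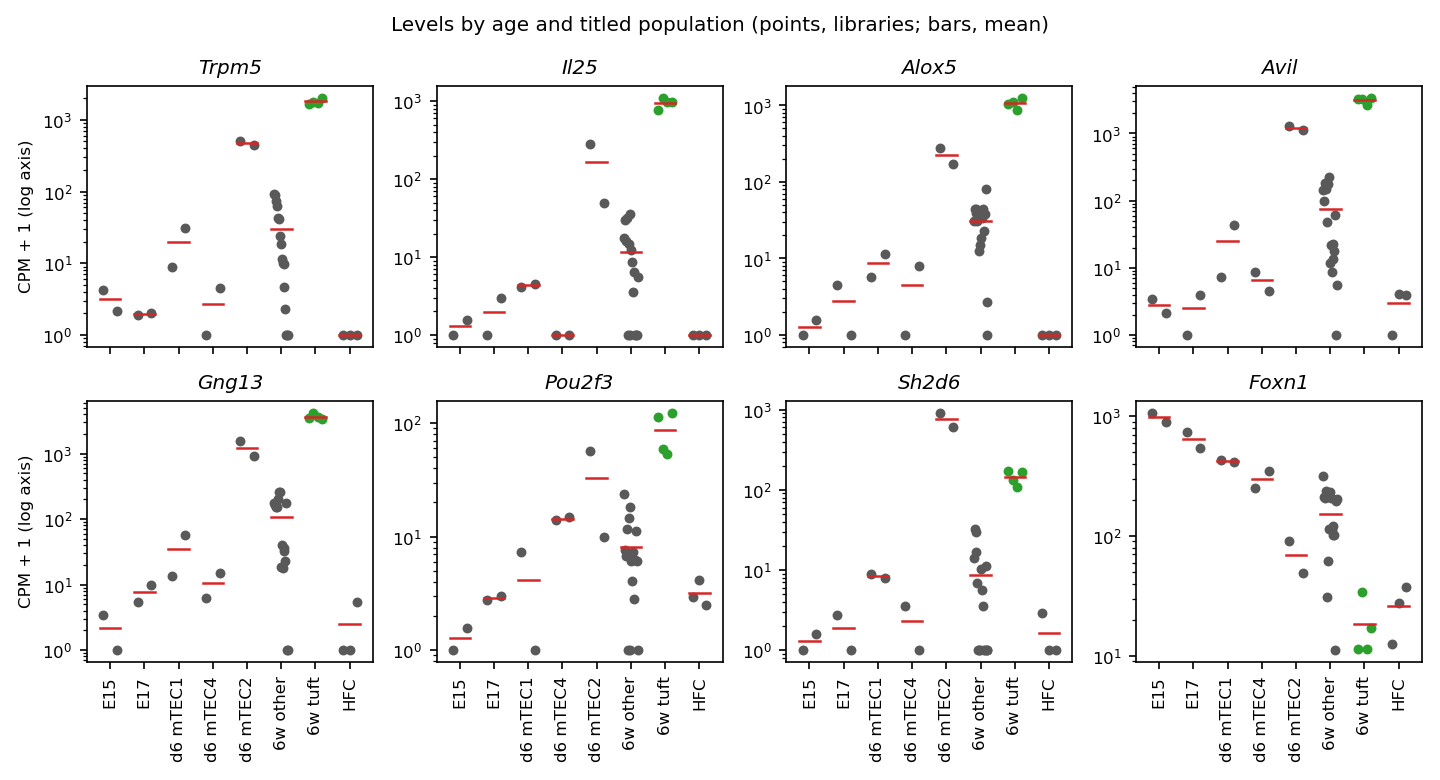
CPM + 1 (log axis) of 8 genes by age and titled population; points are libraries, red bars means, green the 4 tuft-marker libraries at 6 weeks. By their means, Trpm5, Il25, Alox5, Avil, Gng13 and Pou2f3 are highest in the green points, Sh2d6 is highest in titled mTEC2 at day 6, and Foxn1 is lowest, on average, in the green points.

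Of the 9 MHC class II genes, 6 fell in titled mTEC2 at day 6. H2-Aa stood at 3120 and 1494 CPM against 5157 to 9611, a change of −1.67 ± 0.26 (limma adjusted p = 0.00444). Foxn1 stood at 89.2 and 47.8 CPM against 251 to 434, a change of −2.41 ± 0.28 (limma adjusted p = 0.00108), and 10 of 11 cortical genes fell. Igfbp6 fell too, at 15.4 and 8.97 CPM against 68.9 to 246 (−3.27 ± 0.41, limma adjusted p = 0.00189). Col4a1 did not pass, at 588 and 3093 CPM against 174 to 1356 (1.34 ± 0.52, limma adjusted p = 0.142), and the library at 3093 CPM also had the highest sum of endothelial genes at day 6. The 5 most lowered genes at day 6 were Il7, a cytokine of lymphocyte survival, the hormone precursor Pomc, Sptssb, the chemokine Xcl1 and Fgf14. Il7 was at 0 in both titled mTEC2 libraries and at 55.7 to 111 CPM in the other 4.

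In the 4 embryonic libraries the 19 cytoskeletal and signalling tuft genes summed to 86.6 to 166 CPM, against 15357 to 17696 CPM in the tuft-marker libraries, and the 10 effectors to 20.8 to 56.6 against 4233 to 4904 CPM. Trpm5 stood at 3.20 and 1.15 CPM at E15 and at 0.884 and 0.993 at E17. Across the 11543 genes, E17 exceeded E15 in 86 (0.745%) and fell below it in 2 (0.0173%) by limma. Of the 40 tuft-list genes tested, 0 were called, 3 (Gnb3, Lrmp and Ltc4s) had an unadjusted p below 0.05, as did 642 of all 11543 genes, and edgeR and DESeq2 also called 0. Some of the 40 were at or near 0 in all 4 embryonic libraries, such as Chat at 0 and Il25 at 0 to 1.99 CPM. Such genes had little or no room to be called, so the 0 is not read as a result about them. Leaving out any 1 embryonic library reduced the 86 to between 4 and 15, namely 12 without the first and 15 without the second E15 library, and 4 without either E17 library. In the HFC libraries Trpm5, Il25 and Alox5 were at 0 in all 3, and Avil stood at 0 to 3.12 CPM. Other tuft-list genes were present there, such as Sox9 at 177 to 359 CPM and Itpr3 at 311 to 401 CPM.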

How the data were processed

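The authors deposited 1 table of signal values for 15273 genes in 33 libraries, in which each library's values sum to 100, so a value is a share of the library's UMIs in percent. RNA was captured on Dynabeads and made into MARS-seq libraries, per the labels' protocols. Tools listed without roles in the submitters' processing notes are STAR 2.4.2a, HTSeq, cutadapt, bcl2fastq and DESeq2, with the build mm10. The handling of reads shared between genes is not stated there. Division of each library by its smallest value above 0 returned whole UMIs, within 0.01, for all 33 libraries. Intervals and limits from such counts cover counting error only. No mitochondrially encoded gene is in the table (0 genes).

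The analysis plan, which assumed normalized UMIs, was kept: shares were scaled to the median total of 570253 UMIs and log2(value + 1) was taken, so fold changes understate those of genes with few UMIs. A gene was used where 2 or more libraries of the fit or contrast had at least 5 normalized UMIs. Day 6 and embryonic libraries (10) were fitted together with limma 3.58.1 (trend, two-sided) in R 4.3.3, grouped by title, with adjusted p below 0.05. The limma fit was also tested on simulated data, in which genes not altered on purpose had the same mean share in all libraries. No support for the calls is drawn from that test. Replicate numbers did not pair libraries, so the fit has no block. Alternatives were other pseudocounts, filters and scaling, robust moderation, edgeR 4.0.16 and DESeq2 1.42.0 on the recovered UMIs, and leaving out libraries.

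The members and the 23 gene lists were chosen with earlier results of these data known. Genes are named by a rule: all tuft-list genes, the 15 most raised and 10 most lowered genes apart at 6 weeks without predicted genes, up to 4 abundant members of each other list, and the 5 most raised and 5 most lowered at day 6; exceptions are marked, and a few genes the rule names are not reported here. Coordinates are from GENCODE M21 on GRCm38. Other steps used Python 3.11.15, numpy 2.4.6, pandas 2.3.3 and matplotlib 3.10.9.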

Additional observations from a re-analysis of the deposited data

Results flagged for a closer look

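Of 63 genes checked in the 4 tuft-marker libraries (the tuft lists and the genes most raised or lowered), 7 had 1 library so far from the rest that the gap exceeded Dixon's 95% critical value for 4 samples, where chance flags about 1 gene in 20. In 195 mTEC4 these were Rgs13 at 819 CPM, Tas2r105 at 143, Tas2r131 at 25.3 and Rgs21 at 29.8, all above the other 3, and Avil at 2637, below them. Nrgn in 195 mTEC3 was high at 2617 CPM and Inpp5d in 195 mTEC2 was high at 254 CPM.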

How the results depend on the processing

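At 6 weeks the 473 higher and 79 lower genes became 310 and 40 with a pseudocount of 5, and 119 were lower with a minimum log2 difference of 1. Centring on the title number as a replicate block gave 766 and 178, title number 195 alone 1598 and 723, and number 196 alone 1229 lower. With the tuft-marker library of number 196 only, 286 were lower; at a Trpm5 threshold of 0.2%, which leaves 1 library, 228 and 153; and with the libraries of few Y-linked UMIs only, chosen after seeing the data, 163 were lower. Fewer libraries on a side make it easier not to overlap. The Trpm5 threshold of 0.2% also moved the tuft-marker libraries below it to the other side, so its counts are of a different contrast. Leaving out 1 library gave 474 to 505 and 77 to 112. At day 6, a filter at a mean of 10 UMIs gave 293 higher (110 of the 473), and day 6 libraries alone 109 and 54 (62 of the 473, and 9 of the 79); leaving out 1 library gave 312 to 907 higher, 175 to 1780 lower, 123 to 183 of the 473, 13 to 34 of the 79 and 18 to 29 tuft-list genes. The replicate block gave 324 and 231 at day 6 and 51 and 1 for E17 against E15; differences between same-numbered libraries correlated at −0.006 to 0.042, so the numbers do not pair them. For E17 against E15, edgeR gave 165 higher, DESeq2 238 and 7, embryonic libraries alone 452 and 53 (1 of the tuft-list genes), no filter or median of ratios scaling 1 lower, and leaving out 1 library 4 to 15 higher and 1 lower. At day 6 the log2 changes of 4 uncalled genes changed sign when 1 library was left out, over −1.80 to 0.46 for Hipk2, −1.37 to 1.58 for Bgn, −2.99 to 0.72 for Fbn1 and −2.17 to 0.55 for Il13ra1; the causes were not tested. In the shallowest other library (98670 UMIs) a count of 0 allows a level of up to 30.4 CPM.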
